A study of Bos taurus with 6 samples.

Results

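The sperm-egg fusion genes considered here are IZUMO1, IZUMO2, IZUMO3, IZUMO4, SPACA6, TMEM95, DCST1 and DCST2, chosen by name from the deposited table of gene expression in cattle testes. Of these 8 names, 7 were found among the 47249 genes of the table, 1 row each, and no row carried the name DCST2. The libraries were made from untreated testicular tissue of Wandong cattle, 3 of them immature calves (3 ± 0.24 months old) and 3 of them andrologically mature bulls (3 ± 0.014 years old, ages as labelled), and each library stood for an animal of its own. Values below are listed in the order of animals 1, 2 and 3 of a group. Total RNA was depleted of ribosomal RNA before sequencing, and expression was given as FPKM (fragments per kilobase, adjusted for library size), a level per length that allows genes to be compared. No read counts were used here, so counting error could not be given. An SD is the spread over the 3 animals of a group. An SE comes from the linear model (limma), which pools both groups and is moderated over all features fitted.

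Fusion of the gamete membranes is the last step of sperm entry. IZUMO1, an immunoglobulin-like protein of the sperm membrane, becomes exposed after the acrosome reaction and binds the egg receptor JUNO (gene IZUMO1R). In mice, SPACA6, TMEM95, DCST1 and DCST2 are needed after that binding, and sperm that lack any of them attach to the egg but fail to fuse, whereas in cattle the loss of TMEM95 is known to leave bulls subfertile. IZUMO2, IZUMO3 and IZUMO4 share the domain that gives the family its name. Many transcripts of sperm proteins are made in late meiotic cells and spermatids, which appear in the testis around puberty.

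The library labelled calf 3 went against its label. In that library, all 6 Sertoli cell markers examined were below both other calves, FSHR, WT1 and GATA4 among them at 0, and the summed FPKM of the list was 14.8 against 1456 in calf 2 and 1786 in calf 1. All 5 neural markers examined (MBP, MOBP, GFAP, SNAP25 and AQP4) were above both other calves in the same library, with a sum of 7854 against 5.86 to 10.7 in the other 5 libraries. Without calf 3, AQP4 was called higher in bulls (log2 fold change 1.40; limma, adjusted p = 0.000444). Results are therefore given with and without the library labelled calf 3. Markers of spermatids separated the groups: the summed FPKM of 8 genes of elongated spermatids was 1.89 to 4.13 in calves and 13733 to 15882 in bulls, and that of 6 genes of round spermatids was 3.19 to 5.79 in calves and 683 to 760 in bulls. Of these lists, 7 of 7 and 5 of 5 genes tested were called higher in bulls, against 35.7% of all genes (37.9% without calf 3), but 7 and 4 of them had passed the filter on low values through the bulls. Spermatocyte genes summed to 3.49 to 23.9 in calves and 284 to 341 in bulls. Sertoli cell genes summed to 117 to 148 in bulls, below calf 1 and calf 2. With all libraries none of the 6 was called lower, and without calf 3 all 6 were (13.6% of all genes). Leydig cell genes summed to 1406, 1141 and 0.502 in calves and 1465 to 2738 in bulls, and none was called in either fit. INSL3 made up most of these sums outside calf 3. Bull 3 was the highest bull for each Leydig cell gene, with wide spread for STAR (73.7, 30.0 and 266 in bulls) and CYP11A1 (3.09, 4.24 and 34.7). Genes of spermatogonia summed to 42.1, 52.1 and 0.306 in calves and 244 to 253 in bulls. DDX4 (156 to 160 in bulls) and DAZL (68.9 to 77.0) made up most of the sums in bulls, and STRA8 was also higher there. NANOS2, of the same list, went the other way, with 0.901 and 0.510 in calf 1 and calf 2 and at most 0.0556 in bulls, and was not tested. The part of these cell types in the results below, the egg-side genes included, was not tested. In whole tissue, fewer cells of a type and less RNA per cell cannot be told apart.

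The comparison of bull with calf testes asks which transcripts accompany sexual maturity. Of the 7 genes found, IZUMO1, IZUMO2, IZUMO3, IZUMO4, TMEM95 and DCST1 rose in bulls and none fell, and SPACA6 did not reach the fold change required. Calls required a Benjamini-Hochberg adjusted p under 0.05 together with a log2 difference of 1 or more in size, on the log2(FPKM + 1) scale, in limma fits over the 18115 genes that had FPKM 1 or more in 3 or more libraries. By these criteria 35.7% of all genes tested were called higher in bulls, so a call is common in this comparison. Of the 7 genes, 5 reached the filter in fewer than 3 calves and thus passed it through the bulls, so their difference is in part a condition of being tested. The median log2 fold change was 3.77 over the 7 genes and 0.43 over all genes tested. Without calf 3, all 7 were called higher (37.9% of all genes), with a median of 3.79.

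**Figure D1:**
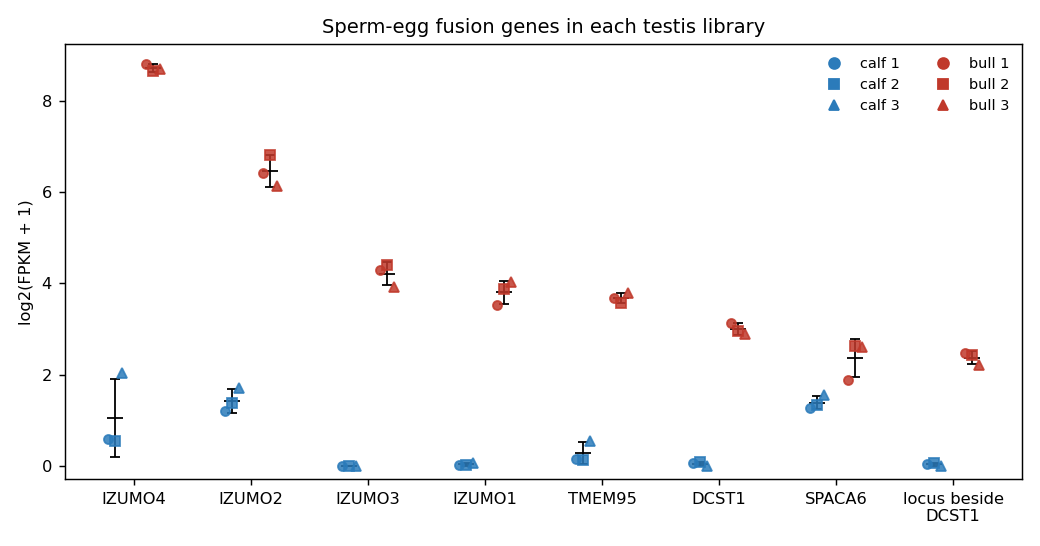
Expression of the 7 sperm-egg fusion genes and of an assembled locus beside DCST1, as log2(FPKM + 1) on the vertical axis, in 3 calves (blue) and 3 bulls (red); the marker shape gives the animal number, and black bars show the mean and SD over 3 animals. IZUMO4 stands highest in bulls, and SPACA6 has the smallest distance between the groups. Calf 3 is the highest calf for IZUMO4, IZUMO2, IZUMO1, TMEM95 and SPACA6.

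IZUMO1 (ENSBTAG00000011621) lies on chromosome 18 from 55373388 to 55376353, positions being those of the table, and has 1 transcript there. Its FPKM was 0.0142, 0.0101 and 0.0480 in calves, and 10.5, 13.6 and 15.3 in bulls. The receptor-binding gene was thus close to 0 in each calf, and the lowest bull lay far above the highest calf. The log2 fold change was 3.77 (SE 0.19; limma, adjusted p = 2.46e-05), and 3.79 without calf 3. The values of IZUMO1 in calves are small beside the added 1, so the size of this fold change depends on it, and with 0.1 added instead it was 6.73.

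IZUMO2 (ENSBTAG00000044113, chromosome 18, 56351818 to 56372775) encodes another member of the family. Its FPKM was 1.29, 1.59 and 2.25 in calves, and 85.1, 112 and 69.3 in bulls. Bull 2 was highest and bull 3 lowest, and no bull overlapped a calf. The log2 fold change of IZUMO2 was 5.04 (SE 0.24; limma, adjusted p = 2.15e-05), and 5.18 without calf 3.

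IZUMO3 (ENSBTAG00000023412, chromosome 8, 19634212 to 19637409), which in mice takes part in the formation of the acrosome, was listed at 0 in all 3 calves. In bull 1, bull 2 and bull 3 its FPKM was 18.7, 20.2 and 14.2. The gene was therefore detected in each bull and in no calf, and no ratio is given against a group at 0. On the log2(FPKM + 1) scale the groups differed by 4.21 (SE 0.19; limma, adjusted p = 1.74e-05), and by the same 4.21 without calf 3. With 0.1 added in place of 1, the difference was 7.46.

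IZUMO4 (ENSBTAG00000025448, chromosome 7, 21448720 to 21451824) encodes the family member without a membrane anchor. It had an FPKM of 0.491, 0.458 and 3.12 in calves, and of 447, 403 and 414 in bulls. The bulls were close to each other, with a coefficient of variation of 5.42%, whereas calf 3 stood apart from the other calves. Its log2 fold change was the largest among the 7 genes, at 7.67 (SE 0.43; limma, adjusted p = 3.65e-05), and was 8.16 (SE 0.10) without calf 3. With all libraries, this increase ranked 44 among the genes tested.

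TMEM95 (ENSBTAG00000052395, chromosome 19, 27055563 to 27057602), the small membrane protein of bull fertility, had an FPKM of 0.106, 0.0979 and 0.462 in calves. In bull 1, bull 2 and bull 3 it was at 11.9, 10.9 and 12.7. The bulls differed little, with a coefficient of variation of 7.75%, and calf 3 was again the highest calf. TMEM95 had a log2 fold change of 3.40 (SE 0.19; limma, adjusted p = 3.62e-05), and 3.54 without calf 3, and with 0.1 added it was 5.39.

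DCST1 (ENSBTAG00000010655, chromosome 3, 15548874 to 15564300) encodes a sperm membrane protein related to DC-STAMP, a protein of osteoclast fusion. Its FPKM was 0.0353, 0.0555 and 0 in calves, and 7.80, 6.70 and 6.42 in bulls. All bulls lay above all calves. The log2 fold change was 2.95 (SE 0.14; limma, adjusted p = 2.14e-05), and 2.93 without calf 3, and with 0.1 added it was 5.78.

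SPACA6 (ENSBTAG00000048204, chromosome 18, 57671600 to 57700365), which encodes a sperm membrane protein of the same fold as IZUMO1, was the exception. Its FPKM was 1.41, 1.52 and 1.92 in calves, and 2.69, 5.12 and 5.08 in bulls. The groups did not overlap, but bull 1 came nearer to calf 3 than to the other bulls, and the ratio of the group means was 2.65. The log2 fold change of 0.98 (SE 0.25; limma, adjusted p = 0.0176) was just under the size required for a call, and it was 1.07 (adjusted p = 0.00942) without calf 3 and 1.22 (adjusted p = 0.00586) without bull 1. Without calf 1, calf 2, bull 2 or bull 3 in turn, the adjusted p of SPACA6 was 0.0582, 0.0543, 0.0635 and 0.0629. After quantile normalization of the libraries it was 0.32 (adjusted p = 0.33). For all 7 genes each bull was above each calf, as for 46.1% of all genes tested. No calf reached FPKM 1 for IZUMO1, IZUMO3, TMEM95 and DCST1. Passing the filter thus already placed each bull above each calf for these genes, and the count is not read against that share.

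**Figure D2:**
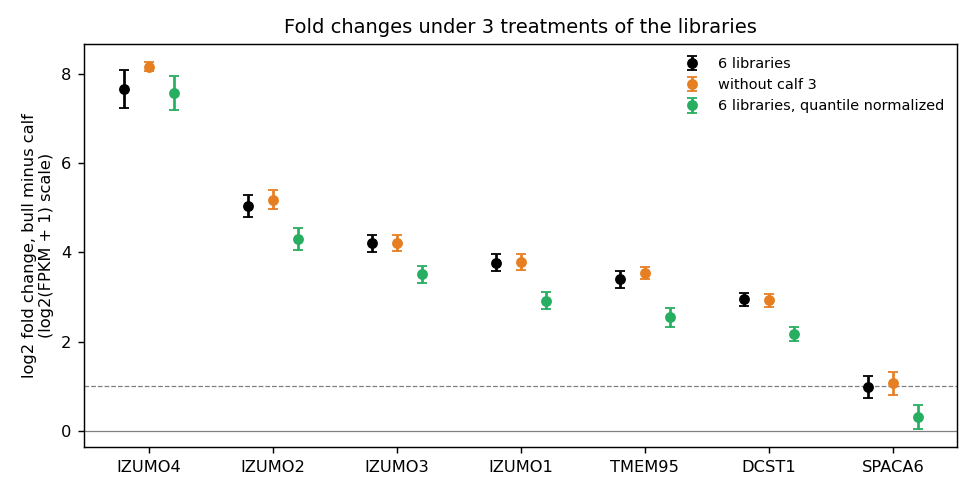
Log2 fold change of bulls minus calves on the log2(FPKM + 1) scale (vertical axis) for the 7 genes, with bars of 1 standard error, from all 6 libraries (black), without calf 3 (orange) and after quantile normalization (green); the dashed line marks the log2 fold change of 1. SPACA6 lies near that line with all libraries (0.98) and falls to 0.32 after quantile normalization, while the other genes stay above it.

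The scaling of the libraries shifts every fold change. Over the 18115 genes, the median log2 difference was 0.43 as deposited and −0.26 after quantile normalization, and the calls changed from 6474 higher and 1741 lower genes to 3827 higher and 4538 lower (25.1% of genes). The members stood in the same order under both scalings. After quantile normalization IZUMO4 had a log2 fold change of 7.57, IZUMO2 of 4.30, IZUMO3 of 3.51, IZUMO1 of 2.92, TMEM95 of 2.55 and DCST1 of 2.17. These 6 genes were called higher, where 21.1% of all genes were. All of them but IZUMO2 had passed the filter through the bulls, so the count is not read against that share.

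The members differed widely in level among themselves. In bulls the mean FPKM was 422 ± 22.8 for IZUMO4, 88.9 ± 21.7 for IZUMO2, 17.7 ± 3.16 for IZUMO3, 13.1 ± 2.41 for IZUMO1, 11.8 ± 0.915 for TMEM95, 6.97 ± 0.733 for DCST1 and 4.30 ± 1.39 for SPACA6 (SD, n = 3 for each). IZUMO4 was 3.59 to 5.98 times as abundant as IZUMO2 and 27.1 to 42.5 times as abundant as IZUMO1 within a bull. The ranges of IZUMO3 and IZUMO1 overlapped, and so did those of IZUMO1 and TMEM95, so the order of these neighbours is not settled by 3 animals. TMEM95 was above DCST1 and DCST1 above SPACA6 in each bull, without overlap. Among 17758 genes with an Ensembl identifier and a symbol, the mean of the bulls placed IZUMO4 at percentile 99.7, IZUMO2 at 95.9, IZUMO1 at 70.1 and SPACA6 at 47.8.

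The bulls did not rank alike across the genes. IZUMO1 and TMEM95 were highest in bull 3, IZUMO2, IZUMO3 and SPACA6 in bull 2, and IZUMO4 and DCST1 in bull 1. The highest bull exceeded the lowest by 1.11 times for IZUMO4, 1.17 times for TMEM95, 1.22 times for DCST1 and 1.45 times for IZUMO1, and by 1.91 times for SPACA6. No bull was thus high or low for the whole set.

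The table of transcripts holds 33 entries for the 7 genes, and their FPKM summed to that of the gene in 42 of 42 pairs of a gene and a library (tolerance 0.001). Of these 33 transcripts, 11 passed the filter, and all 11 were called higher in bulls, with and without calf 3, where 34.8% of 23212 transcripts were called higher with all libraries and 36.1% without calf 3. All 11 had passed the filter through the bulls, none reaching FPKM 1 in more than 1 calf, so this count follows in part from the filter. IZUMO1 and DCST1 had a single transcript each. IZUMO4 was almost wholly IZUMO4-201 (99.7%, 99.8% and 99.6% of the gene in the 3 bulls), and IZUMO4-202 reached at most an FPKM of 1.86. How fragments shared by overlapping transcripts were divided is not given in the sources used here, so shares are a description.

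For IZUMO2, the Ensembl transcript IZUMO2-202 was listed at 0 in all calves and at 36.8, 42.7 and 58.0 in bulls. A short transcript assembled from the reads (56371739 to 56372775, 1037 bp at the end of the gene with the highest position) had 47.9, 68.9 and 10.8 in the same bulls. The short transcript held 56.3%, 61.3% and 15.6% of IZUMO2 in bulls, so bull 3, which had the least IZUMO2 in total, had the most IZUMO2-202. In calves the row was of another make-up. A transcript named IZUMO2-AS1 (56351818 to 56355670) had 0.459, 0.391 and 2.05 in calves, which was 35.6%, 24.6% and 91.0% of the row, and 0.268, 0.430 and 0.373 in bulls. The short transcript held 22.0%, 43.7% and 0% of the row in calves. The other two transcripts of IZUMO2 had at most 0.474 in each library. Without IZUMO2-AS1, a choice made after these values were seen, the FPKM of IZUMO2 was 0.830, 1.20 and 0.202 in calves, and the log2 fold change was 5.70 (adjusted p = 2.99e-05, limma), or 5.45 when calf 3 was also left out.

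**Figure D3:**
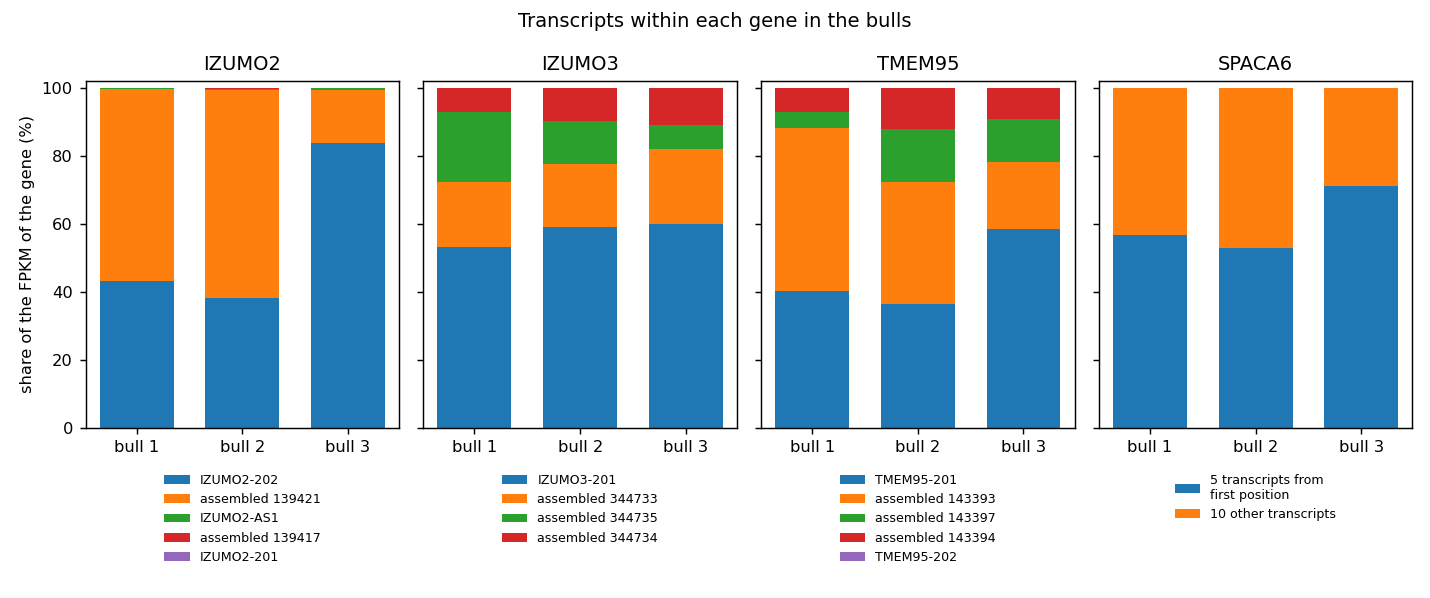
Share of each gene's FPKM held by its transcripts (vertical axis, %) in bulls, for IZUMO2, IZUMO3, TMEM95 and SPACA6; SPACA6 is divided into the transcripts that begin at the first position of its row and the others. IZUMO2-202 holds 83.8% of IZUMO2 in bull 3 but 43.3% in bull 1 and 38.1% in bull 2.

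All 4 transcripts of IZUMO3 span the same interval, and all were listed at 0 in calves. IZUMO3-201 was the main form, with 53.2%, 59.0% and 59.9% of the gene in bulls. TMEM95 was divided between TMEM95-201 (FPKM 4.77, 3.97 and 7.45 in bulls) and assembled forms that share its start and reach further, to 27057602. The largest assembled form of TMEM95 had 5.70, 3.88 and 2.48 in the same bulls, and both were listed at 0 in all calves. In the calves the whole of TMEM95, calf 3 included, was a single assembled form at 0.0979 to 0.462, and TMEM95-202 was listed at 0 in each library.

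The SPACA6 row joins transcripts of different position. The Ensembl transcript SPACA6-201 (57689833 to 57699513) had an FPKM of 0.0163, 0.0573 and 0 in calves, and of 0.0843, 0.277 and 0.0255 in bulls. It held 0.503% to 5.41% of the row in bulls, and none of the 15 transcripts of SPACA6 passed the filter on its own. The other 14 were assembled from the reads. A set of 5 transcripts runs from the first position of the row, 57671600, to 57690721 and meets SPACA6-201 only at its near end. Their summed FPKM was 0.182, 0.140 and 0.219 in calves, and 1.52, 2.70 and 3.61 in bulls. They held 9.21% to 12.9% of the row in calves and 52.8% to 71.1% in bulls, without overlap.

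The other 10 transcripts of SPACA6, which include SPACA6-201, summed to 1.23, 1.38 and 1.70 in calves, and to 1.16, 2.42 and 1.47 in bulls. These groups overlapped, and the log2 fold change of the 10 transcripts was 0.12 (SE 0.21; limma, adjusted p = 0.663; 0.19 without calf 3, adjusted p = 0.45), a division of the row chosen after its values were seen. The sum of the 10 joins low transcripts that differed in direction. The one from 57687886 had a mean of 0.0526 in calves and 0.474 in bulls, but the one from 57685561 had 0.461 and 0.0809. Some of the 10 begin at 57671870 and reach the end of the row, so they span both parts of it. The mean FPKM went from 0.180 ± 0.0397 to 2.61 ± 1.05 for the 5 transcripts at the first position and was 1.44 ± 0.243 in calves and 1.68 ± 0.655 in bulls for the other 10 (SD, n = 3). The tables give no strand, so it cannot be told whether these transcripts belong to SPACA6 or run against it. The row also contains MIR99B, MIRLET7E and bta-mir-125a, microRNA genes whose own rows were at most 0.0624 in each library.

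**Figure D4:**
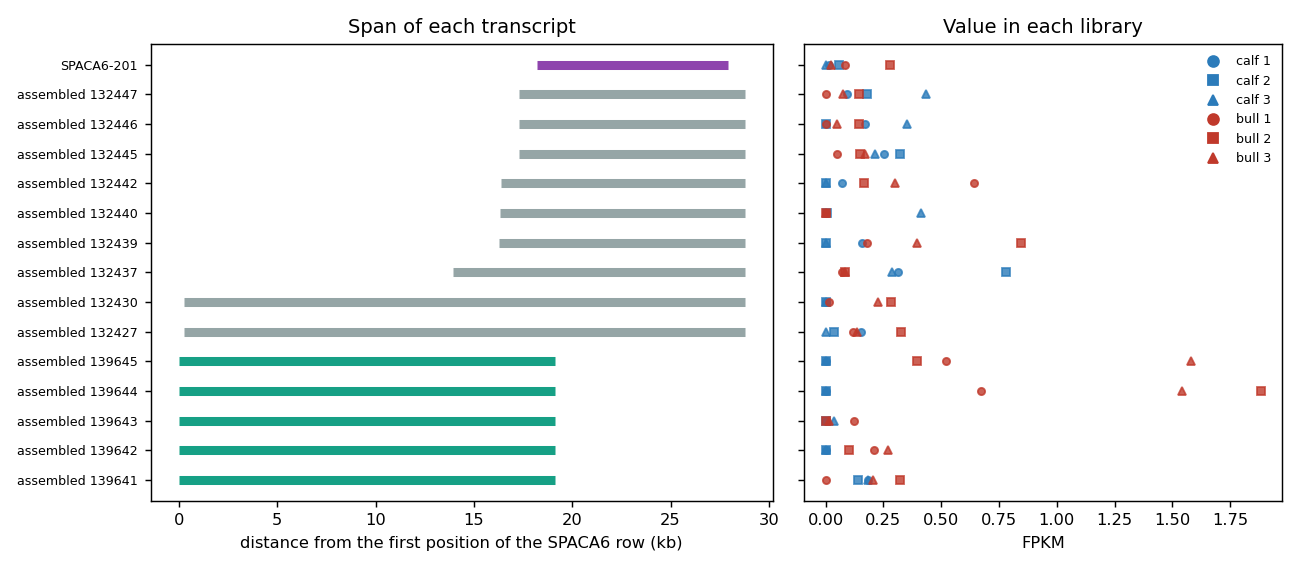
Left, span of the 15 transcripts in the SPACA6 row as distance in kb from its first position, with SPACA6-201 in purple and the 5 transcripts that begin at the first position in green; right, FPKM of each transcript in each calf (blue) and bull (red). The highest values in bulls, up to 1.88, belong to the green group, and SPACA6-201 stays at or under 0.277.

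DCST2, the partner of DCST1, has no row under its name. In the RefSeq annotation of the ARS-UCD2.0 assembly, DCST2 follows DCST1 and precedes ZBTB7B. The table of genes has 1 entry between DCST1 and ZBTB7B, an assembled locus named XLOC_171331 on chromosome 3 from 15564544 to 15569144, which begins 243 bp after the end of DCST1 and has 1 transcript. Its FPKM was 0.0339, 0.0365 and 0 in calves, and 4.53, 4.42 and 3.64 in bulls. Like DCST1, XLOC_171331 was highest in bull 1 and lowest in bull 3, and calf 3 was at 0 for both. TSSK6 and SPPL2C had the same order of bulls, and calf 3 was also at 0 for GLIPR1L1, so neither trait is particular to DCST1 and XLOC_171331. The log2 fold change of the locus was 2.34 (SE 0.13; limma, adjusted p = 3.36e-05), and 2.32 without calf 3. The files do not name it as DCST2, so it was not counted among the members, and it was looked at because of its place.

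Other genes of gamete fusion were examined from a list of 17, of which 16 were found and 11 tested. Among the 11, calls were made for 9 genes with more and 2 with less expression in bulls, with the same numbers without calf 3, and the background was 35.7% of genes called higher and 9.61% lower with all libraries (37.9% and 13.6% without calf 3). The 9 higher genes were all from the sperm side of the list and the 2 lower genes from the egg side. All 9 sperm-side genes tested had passed the filter through the bulls, so their count follows in part from the filter and is not read against the background.

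**Figure D5:**
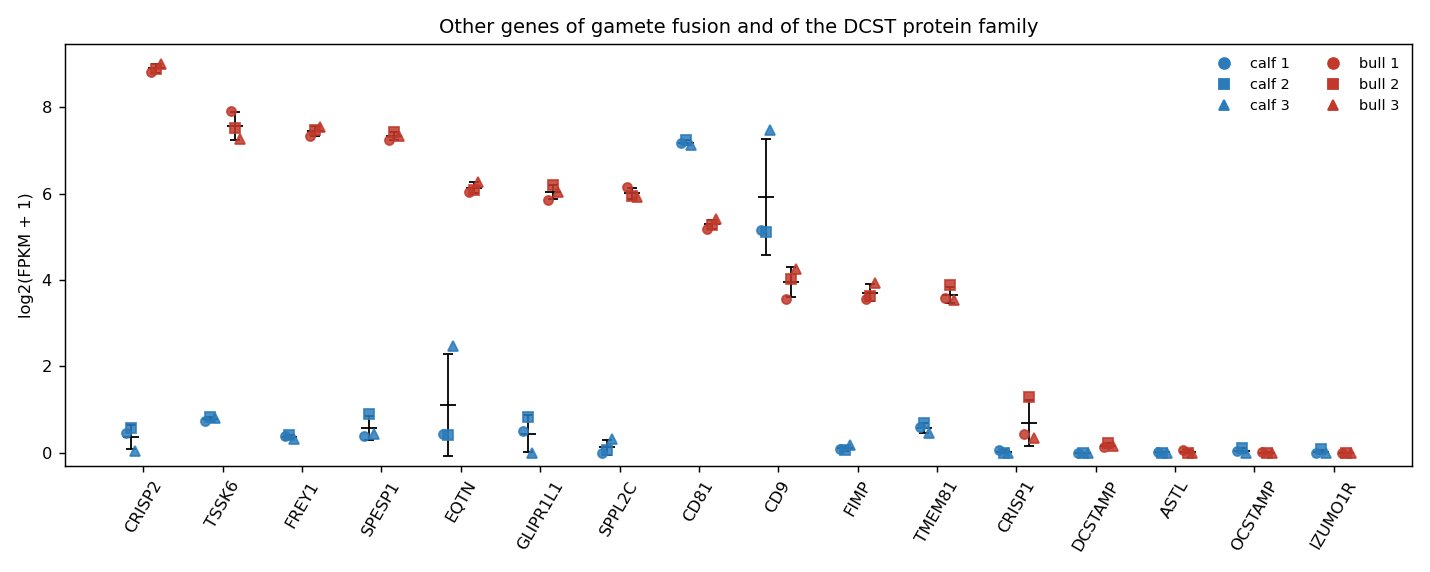
Expression of the 16 listed genes that were found, as log2(FPKM + 1) on the vertical axis, in 3 calves (blue) and 3 bulls (red), with black bars for the mean and SD over 3 animals; the order follows the mean of the bulls. CRISP2 is highest in bulls, CD81 and CD9 are higher in calves, and the 5 genes at the right end stay low in both groups.

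On the sperm side, TMEM81, which joins IZUMO1 and SPACA6 in a complex on the sperm surface, had an FPKM of 0.510, 0.599 and 0.370 in calves and of 10.9, 13.7 and 10.5 in bulls. Its log2 fold change was 3.08 (adjusted p = 4.39e-05, limma; 3.02 without calf 3), and its level in bulls was in the range of IZUMO1 and TMEM95. FIMP (C16orf92 in the table), a sperm membrane protein needed for fusion in mice, rose from at most 0.123 in calves to 10.8, 11.5 and 14.2 in bulls (log2 fold change 3.60, adjusted p = 2.10e-05, limma; 3.64 without calf 3).

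FREY1, SPPL2C, TSSK6 and GLIPR1L1, linked to IZUMO1 directly or through FREY1, were more abundant in bulls than TMEM81 and FIMP. So were SPESP1 (151 to 172 in bulls), EQTN and CRISP2, described below, so a higher level was not particular to genes linked to IZUMO1. FREY1 (C15H11orf94 in the table), a protein of the endoplasmic reticulum that helps to assemble the IZUMO1 complex, reached 160, 177 and 185 in bulls against at most 0.328 in calves. SPPL2C, a protease that FREY1 inhibits, reached 70.0, 60.4 and 59.9 against at most 0.252. TSSK6, a kinase needed for the movement of IZUMO1 after the acrosome reaction, reached 241, 183 and 154 against at most 0.768. GLIPR1L1, which takes part in the localization of IZUMO1, reached 57.2, 72.4 and 65.1 against at most 0.782. The log2 fold changes of these 4 genes were 7.08, 5.88, 6.79 and 5.59 in the same order, all called (adjusted p from 2.53e-06 to 1.77e-05, limma), and without calf 3 they were 7.06, 5.98, 6.80 and 5.37.

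Proteins of the acrosomal membrane and the CRISP family completed the sperm side. SPESP1 and EQTN, both of the equatorial acrosome, had log2 fold changes of 6.76 and 5.03 (6.70 and 5.72 without calf 3), and EQTN had 4.57 in calf 3 but 0.351 and 0.324 in the other calves. CRISP2, a protein of the acrosome and tail, had the highest level of the list, with 449, 470 and 516 in bulls and a log2 fold change of 8.55 (8.39 without calf 3). CRISP1, made mainly in the epididymis, had at most 1.47 and was not tested. No row carried the name LLCFC1.

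On the egg side, IZUMO1R, the gene of the receptor JUNO, was at 0 in 5 libraries and at 0.0556 in calf 2, and ASTL, an egg protease, reached at most 0.0486. The tetraspanin CD81, which is also widespread in somatic cells, fell from 142, 150 and 139 in calves to 35.3, 37.8 and 41.4 in bulls (log2 fold change −1.89, adjusted p = 0.000127, limma; −1.91 without calf 3). CD9, the tetraspanin of the egg membrane that somatic cells also carry, was at 35.0 and 33.6 in calf 1 and calf 2 but at 176 in calf 3, and at 10.8, 15.3 and 18.2 in the bulls. Its log2 fold change of −1.96 (adjusted p = 0.0474) was −1.19 (adjusted p = 0.00249) without calf 3. DCSTAMP and OCSTAMP, the relatives of DCST1 in osteoclast fusion, had at most 0.164 in each library.

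Genes most like each member were sought as those with the smallest Euclidean distance over log2(FPKM + 1) in the 6 libraries, a measure that is dominated by the difference between the groups. For IZUMO1 these were PRR30, C16orf92 (FIMP) and TRIM42, at distances of 0.20, 0.28 and 0.29, with 15 genes within 0.5. For IZUMO3 they were ITLN2, C15H11orf91 and RSPH6A, for TMEM95 CCDC188, EFCAB8 and CBY3, and for DCST1 TNS4, TSGA13 and DNAH3, all within 0.38. IZUMO2 was nearest to TSGA10, TULP2 and FAM71F2, with the closest at 0.51. IZUMO4 had no near companion: C7H19orf71, OAZ3 and FAM71E1 lay closest, with OAZ3 at 1.61 and FAM71E1 at 1.67. SPACA6 was nearest to PARD6A, ANO5 and GCNT7 at 0.39, 0.53 and 0.58. C16orf92 was the only member of the fusion list among these neighbours in expression.

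The position of the members was compared through the nearest gene with a symbol on either side. Of 14 such neighbours, 10 were tested and 3 were called higher in bulls, none lower, near the background of 35.7%. The 3 were ZNF473 beside IZUMO2 and AP3D1 and MOB3A on both sides of IZUMO4. MOB3A begins 40 bp after IZUMO4 and had an FPKM of 4.50, 5.18 and 1.92 in calves and of 23.7, 20.6 and 20.9 in bulls (log2 fold change 2.29, adjusted p = 0.00125, limma; 1.96 without calf 3). Whether fragments of IZUMO4 are counted in MOB3A was not tested. RASIP1, 618 bp from IZUMO1, and ADAM15, 398 bp from DCST1, were not called, with log2 fold changes of −0.19 (adjusted p = 0.531) and −0.82 (adjusted p = 0.257). Without calf 3, in which ADAM15 was at 16.1 against 3.57 and 3.27 in the other calves, these were 0.03 for RASIP1 (adjusted p = 0.882) and −0.17 for ADAM15 (adjusted p = 0.366).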

How the data were processed

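Testes of 3 calves and 3 bulls were sequenced as 1 library per animal. The authors discarded low-quality and ribosomal reads, used TopHat2 for mapping and StringTie for assembly, and deposited FPKM values per library for 47249 genes and 108527 transcripts. The Methods name Cuffdiff for circRNAs, and the tool that computed the FPKM of genes and transcripts is not given in the sources used here. The Methods name a UMD assembly, but 1050 genes lie on scaffolds named as in ARS-UCD assemblies, and all 7 members overlapped the RefSeq locus of their symbol on ARS-UCD2.0, so positions are printed as in the table and taken to be on an ARS-UCD build. FPKM sums ranged from 587066 in calf 3 to 1098715 in calf 2.

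Values were analysed as log2(FPKM + 1) with limma 3.58.1 in R 4.3.3 (empirical Bayes trend, two-sided) on features that reached FPKM 1 in 3 or more of 6 libraries, with Benjamini-Hochberg adjustment across every feature fitted. The procedure was also run on simulated data. That simulation left out the spread of calf 3 and changed only genes with a mean log2(FPKM + 1) above 3. It therefore does not bear on members of lower mean level and is not used as support here. Figures used matplotlib 3.10.9. Members were matched by gene name, and all of them were named. Of the other fusion genes, each gene found was accounted for and those called were named. The 3 nearest expression profiles of each member and its nearest gene on each side were named as well. Members and lists were chosen with earlier results of these data known. Alternatives were another pseudocount (0.1), other filters, quantile and upper quartile scaling, no trend, array weights, a replicate block and each library left out. No promoter or protein sequences were used here, and circRNAs were not analysed here. A further neural marker, beyond the 5 printed, is not reported here.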

Additional observations from a re-analysis of the deposited data

How the results depend on the processing

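Under 15 alternatives each, IZUMO1, IZUMO2, IZUMO3, IZUMO4, TMEM95 and DCST1 kept their direction and stayed called, with log2 fold changes from 2.92 to 6.73, 4.30 to 5.62, 3.51 to 7.46, 7.20 to 8.69, 2.55 to 5.39 and 2.06 to 5.78. The highest values of these ranges came with a pseudocount of 0.1. SPACA6 lay between 0.32 and 1.31 and was called under 4 alternatives, with a pseudocount of 0.1 (1.31), with array weights (1.09), without calf 3 (1.07) and without bull 1 (1.22), while its adjusted p ranged from 0.00302 to 0.33. Between 6 and 7 members and 9 related genes were called higher under each alternative, where 3827 to 6984 of all genes were called higher and 7318 to 9337 were called in either direction. Where the main filter was kept, the limit stated above for genes that passed it through the bulls applies to these counts. The number of genes tested differed between alternatives. The count of 6984 was among 44657 genes, with no filter beyond FPKM above 0, and that of 3827 among 18115 (21.1%). In the separate fits of transcripts, 9 to 14 of the members' transcripts were called higher. That was 9 of 11 tested after quantile normalization and 14 of 32 with no filter beyond FPKM above 0. The share of all transcripts called under these settings is not given here, so no background stands beside these counts. The genes called higher in bulls numbered 3827 after quantile normalization and 4062 when calf 3 was also left out, against 6474. Leaving out single libraries gave 7318 to 9325 called genes. Calves and bulls share replicate numbers, but nothing in the labels pairs the animals. Deviations from the group means of animals with the same number correlated at 0.028, 0.025 and 0.034, each the highest for its animal, and with the replicate number as a block 8128 genes and 6 members were called. Without counts, the depth behind the low values in calves is not known.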

Other observations

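A gene without a symbol, ENSBTAG00000053322 (chromosome 18, 56364724 to 56365496), lies inside the span of IZUMO2. Its FPKM in animals 1, 2 and 3 was 0.0683, 0.0476 and 0 in calves, and 54.8, 63.1 and 74.3 in bulls. Among the bulls it followed the order of IZUMO2-202, which was also lowest in bull 1 and highest in bull 3, and not that of the IZUMO2 row, which was lowest in bull 3. IZUMO1, FIMP, FREY1, EQTN and CRISP2 had this order as well, so it is not particular to these entries. ENSBTAG00000053322 was named after its values were seen, and with no strand in the tables it cannot be told from the files whether it is a part of IZUMO2.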
